A study of Mus musculus with 11 samples.

Results

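The cells described here are endoderm cells that carry transcripts of the gastrokines Gkn1 and Gkn2 and of the trefoil factor Tff1, in droplet single-cell RNA-seq of Oct4LOF naive extra-embryonic endoderm (nEnd). They were chosen by measured values. A barcode was taken as an endoderm cell when it held at least 2700 unique molecular identifiers (UMIs, 1 per captured transcript), at most 12% of them mitochondrial, at least 3000 per 1e6 UMIs from Sparc, Col4a1 and Col4a2 together, and fewer than 1000 per 1e6 from the fibroblast collagens Col1a1, Col1a2 and Col3a1. An endoderm cell with 3 or more UMIs of Tff1, Gkn1 and Gkn2 together was taken as positive. By this rule 1546 of 14179 barcodes were positive, 23 of 6896 in the library without 4-hydroxytamoxifen (-4OHT) and 1523 of 7283 in the library with it (+4OHT). The positive cells were described against endoderm cells of the same library with 0 UMIs of the 3 genes, of which there were 1364 and 3509. A further 45 and 1259 endoderm cells held 1 or 2 UMIs and lay in neither set.

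nEnd cells are mouse stem cells that resemble primitive endoderm, the inner layer that the blastocyst sets aside before implantation, and they are kept on feeder cells in RACL, a medium with Activin A, CHIR99021 and LIF. In Oct4LOF nEnd (cell line label EPUc), 4OHT deletes Oct4 (gene symbol Pou5f1), and both libraries came from live cells of this 1 line that had been sorted for PDGFRA before culture with or without the drug. Each condition is 1 library, so that the drug, the deletion and the library cannot be told apart and no difference between conditions was tested. Bulk RNA-seq of a second line with an OCT4-mCherry reporter, untreated and sorted into reporter-only (Oct4+), double-positive (DP) and PDGFRA-only (Pdgfra+) cells with 3 libraries each, served as an independent measurement of the same genes.

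Gastrokines are small secreted proteins of the stomach lining, where they are made by the mucous cells of the surface epithelium. Trefoil factors are short, protease-resistant peptides that are secreted together with mucins and take part in protecting and repairing epithelia. Primitive endoderm gives rise to visceral endoderm, which takes up nutrients through receptors such as cubilin and amnionless, and to parietal endoderm, which lays down a thick basement membrane of laminin and type IV collagen.

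Gkn1 (ENSMUSG00000030050) and Gkn2 (ENSMUSG00000030049) are neighbours on chromosome 6 of GRCm38, Gkn1 at 87345650 to 87350942 on the minus strand and Gkn2 at 87373357 to 87379497 on the plus strand, 22.4 kb apart. Tff1 (ENSMUSG00000024032) lies on chromosome 17 at 31161395 to 31165277 on the minus strand, in a cluster with Tff2 and Tff3. All are protein-coding. The promoters of the gastrokines and of Nupr1, the gene with the highest ratio in positive cells by the ranking used below, are shown because these genes were high in the same cells. Each line gives the 250 bases before the RefSeq start in GRCm38.p6, 5′ to 3′ on the gene's strand, at chr6:87350916-87351165 (minus) for Gkn1, chr6:87373115-87373364 (plus) for Gkn2 and chr7:126625471-126625720 (minus) for Nupr1. Capitals mark matches on either strand to the TATA box (letters TATAAA), the GATA factor motif (letters GATAA), a forkhead motif (letters TGTTTAC), the STAT motif (letters TTCNNNGAA) and the AP-1 motif (letters TGACTCA). No pair of the matches shown shares a base.
Gkn1: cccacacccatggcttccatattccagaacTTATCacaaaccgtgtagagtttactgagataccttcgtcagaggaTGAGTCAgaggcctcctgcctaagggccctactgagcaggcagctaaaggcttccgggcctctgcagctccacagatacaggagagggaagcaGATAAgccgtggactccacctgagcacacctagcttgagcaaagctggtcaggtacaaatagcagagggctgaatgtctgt
Gkn2: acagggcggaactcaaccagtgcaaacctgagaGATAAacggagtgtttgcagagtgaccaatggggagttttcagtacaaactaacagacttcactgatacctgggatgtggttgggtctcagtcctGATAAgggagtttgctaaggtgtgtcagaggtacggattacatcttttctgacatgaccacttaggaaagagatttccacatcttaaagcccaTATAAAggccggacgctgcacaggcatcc
Nupr1: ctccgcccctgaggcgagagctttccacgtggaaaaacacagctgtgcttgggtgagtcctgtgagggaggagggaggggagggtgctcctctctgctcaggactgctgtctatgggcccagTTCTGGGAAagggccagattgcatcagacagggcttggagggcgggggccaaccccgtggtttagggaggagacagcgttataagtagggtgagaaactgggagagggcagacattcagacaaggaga
Both gastrokine windows held 2 matches to GATAA, at 220 and 81 bases before the start of Gkn1 and at 217 and 122 bases before that of Gkn2. Gkn2 also held TATAAA 29 bases before its start, Gkn1 held TGACTCA at 174 bases, and Nupr1 held only TTCNNNGAA, at 128 bases. Of all 32851 promoter windows of this length, 22.6% held GATAA, 12.4% TATAAA, 7.02% TTCNNNGAA, 4.46% TGACTCA and 3.17% TGTTTAC. Among the 15 leading genes named below, 11 had a window, and 2 of these held GATAA (Mucl3 and Oasl2), 2 TATAAA (Oasl2 and Lrrc2), 2 TGTTTAC (Sdcbp2 and Tspan8), 1 TTCNNNGAA (Nupr1) and 1 TGACTCA (Sdcbp2). These matches describe letters in a window and not binding.

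The targeted gene followed the labels. Pou5f1 stood at 39.7 CPM (UMIs of the gene summed over cells, per 1e6 UMIs of all genes in them) over all -4OHT barcodes and at 2.74 over all +4OHT barcodes. In positive cells it was 13.5 CPM without 4OHT, from 4 UMIs, with an exact Poisson 95% interval of 3.68 to 34.6, and 3.07 CPM with 4OHT, from 67 UMIs (2.38 to 3.90). The 0-UMI cells held 16.4 and 1.58 CPM. All intervals given for single-cell values cover counting error only, not variation between cultures. Total UMIs were 107645982 in -4OHT and 95420040 in +4OHT, and 21 barcodes occurred in both libraries, of which 0 and 7 were positive cells.

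Positive cells made up 1.61% of the 1432 -4OHT endoderm cells (exact binomial 95% interval 1.02% to 2.40%) and 24.2% of the 6291 +4OHT endoderm cells (23.2% to 25.3%). Median depth was 15216 and 12533 UMIs per endoderm cell. When every cell was thinned to 2700 UMIs, so that depth was equal, 0.489% and 10.6% of the endoderm cells still held 3 or more UMIs, and 2.16% and 24.9% held at least 1. As a background, 5 of 3874 epiblast-like cells in -4OHT held any UMI of the 3 genes (0.129%, median depth 18854.5). In +4OHT the epiblast-like cells were 68, of which 8 held one (11.8%, or 2.94% after thinning), at 11.02 CPM against 388 CPM in all endoderm cells. Fibroblast-like cells held none in 14 cells without 4OHT, which by the limit of 3 counts allows a share of up to 21.4%, and held UMIs in 15 of 29 cells with it, at 180 CPM. Those 29 cells had a median depth of 30775 UMIs and 12703 CPM of the 9 endoderm markers, against 18995 CPM in the 0-UMI endoderm cells of that library. In +4OHT, 131 positive cells (8.60%) lay above the 95th UMI percentile of endoderm cells, against 2.74% of the 0-UMI cells, and in -4OHT 0 of 23 against 5.06%. The part of doublets and of free RNA in these values was not tested.

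**Figure D1:**
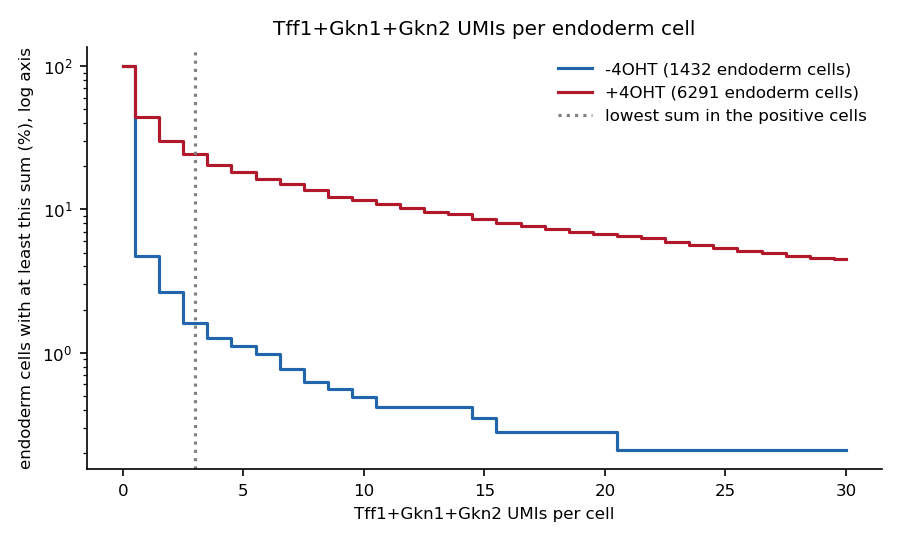
Share of endoderm cells (y axis, percent, log scale) that hold at least the number of Tff1, Gkn1 and Gkn2 UMIs on the x axis, for the -4OHT and +4OHT libraries. The dotted line marks the lowest sum of a positive cell, where the curves stand at 1.61% and 24.2%, and neither curve steps down to a gap there.

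The sum of the 3 genes varied widely within the positive cells and had no break at the limit of the rule. With 4OHT, 368 endoderm cells held 2 UMIs, 236 held 3, and the highest held 510, with a median of 9 over the positive cells. Without 4OHT the corresponding values were 15 cells, 5 cells, 126 UMIs and 6. Cells with 30 or more UMIs were 284 of 1523 and 3 of 23, and they held 64.9% and 60.5% of the UMIs of the 3 genes in positive cells. All 3 genes were found in 569 of the 1523 +4OHT cells (37.4%), 2 genes in 533 and 1 gene in 421. Where 1 gene was found it was mostly Tff1, in 368 cells, against 22 with only Gkn1 and 31 with only Gkn2. In -4OHT, 4 of 23 cells held all 3 genes, 9 held 2 and 10 held 1, which was Tff1 in 9 of them.

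Tff1 was at 365 CPM in the -4OHT positive cells and at 594 CPM in the +4OHT positive cells. Gkn1 was at 395 and 373 CPM, and Gkn2 at 446 and 543 CPM. The 3 genes chose the cells, so that these levels are a description. To ask whether the 3 genes shared cells, positive cells were chosen by 2 of them and the third was read in these and in cells without the 2. With 4OHT, Gkn2 was at 578 CPM in 1343 cells chosen by Tff1 and Gkn1 and at 8.23 CPM in 3803 cells with neither, a ratio of 70.3 (exact 95% interval 63.9 to 77.5). Gkn1 was at 391 against 7.33 CPM, a ratio of 53.4 (48.1 to 59.3). Tff1 was at 659 against 64.6 CPM, a ratio of 10.2 (9.82 to 10.6), and 22.0% of the cells with neither gastrokine held a Tff1 UMI. The ratio was lowest for Tff1, which was also found in many cells without a gastrokine. Over the 6291 +4OHT endoderm cells, which share 1 library and differ in depth, Spearman's rho was 0.6 for Gkn1 and Gkn2, 0.378 for Tff1 and Gkn2 and 0.370 for Tff1 and Gkn1. In -4OHT the ratios were 86.5 for Tff1 from 10 chosen cells, 2325 for Gkn1 from 23 and 574 for Gkn2 from 17, with wide intervals of which the lowest bound was 59.1. Over the 23 positive -4OHT cells, 1 cell held 44.4% of the Gkn1 UMIs, and 1 cell each held 36.4% for Gkn2 and 24.1% for Tff1. The intervals do not take this into account.

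Other genes of the same families were scarce. Tff2, a trefoil factor of gastric mucous neck cells, was at 13.7 CPM in +4OHT positive cells against 2.94 in 0-UMI cells, a ratio of 4.65 (3.8 to 5.72). Tff3, the intestinal trefoil factor, was at 12 against 4.32 CPM, a ratio of 2.78 (2.31 to 3.34). In -4OHT, Tff3 was at 87.8 against 0.469 CPM, but 92.3% of its 26 UMIs came from 1 cell. Gkn3, 32.3 kb from Gkn1, had 0 UMIs in the -4OHT positive cells and 4 in the +4OHT ones. Beyond the trefoil factors, Abcg1, a sterol transporter gene 43.4 kb from Tff1, was at 6.09 against 2.00 CPM with 4OHT, which rests on 133 UMIs, and Antxr1, an anthrax toxin receptor gene 9.83 kb from Gkn1, at 1.14 against 0.288 CPM, from 25 UMIs. Gm15318 overlaps Tff1 and had 5 UMIs in the +4OHT positive cells.

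Since these genes are known from the stomach, markers of gastric mucous cells were read in the same cells. Muc5ac, the mucin that defines them, had 0 UMIs in the positive cells of both libraries. The 6 defining markers summed to 16.9 CPM in positive and 18.0 CPM in 0-UMI cells without 4OHT and to 5.31 and 6.75 CPM with it. Of a wider list of 13 gastric genes only Psca, which codes for a small surface protein, was expressed highly enough to be compared, and Ctse, a gastric aspartic protease gene, was at 2.88 against 0.144 CPM with 4OHT. Of 9 endoderm markers, Sparc, Col4a1 and Col4a2 chose the cells. The 6 others were all detected and summed to 1425 CPM in positive and 1642 CPM in 0-UMI cells without 4OHT and to 1802 and 1844 CPM with it. Among them Gata6 was at 240 against 206 CPM without 4OHT and 363 against 317 with it, and Pdgfra at 152 against 140 and 208 against 207. Gata4, Sox17 and Foxa2 had ratios of 1.81, 1.66 and 2.10 without 4OHT and of 1.20, 0.957 and 1.20 with it. Dab2, an endocytic adaptor gene, went the other way, at 402 against 942 CPM, a ratio of 0.426 (0.353 to 0.511), and at 394.5 against 526 CPM, a ratio of 0.75 (0.732 to 0.769). The 4 markers of feeder fibroblasts outside the rule, Dcn, Lum, Postn and Thy1, summed to 0 and 0.183 CPM in positive cells. Trophectoderm markers summed to 6.75 and 8.61 CPM. Cells with 3 or more UMIs of 5 pluripotency genes made up 8.70% of positive cells and 26.8% of 0-UMI cells in -4OHT, and 2.69% and 0.826% in +4OHT.

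Genes were then compared by the ratio of their CPM in positive and 0-UMI cells. A gene was counted as higher or lower at a ratio of at least 2 or at most 0.5 in both libraries, among 7815 genes with a mean of the 2 CPM values of 10 or more in each library. In this way 64 genes were higher (0.819% of those compared) and 7 lower (0.0896%), the 3 genes of the rule left out. The cells were chosen on the same counts, so that this is a description without a test. In +4OHT alone, 111 genes were higher (1.33%) and 17 lower (0.203%) of 8367. In -4OHT alone, where the positive cells are 23 and held 296168 UMIs, 1032 were higher (12.5%) and 596 lower (7.23%) of 8244. Median log2 ratios over all compared genes were 0.11 in -4OHT and -0.01 in +4OHT.

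The 15 leading genes, ranked by the smaller of the 2 ratios, began with Nupr1, which codes for a small chromatin-associated stress protein. Nupr1 was at 125 against 8.99 CPM in -4OHT, a ratio of 13.9 (9.52 to 19.8), and at 93.5 against 9.10 CPM in +4OHT, a ratio of 10.3 (9.27 to 11.4). After thinning it was seen in 13.3% of the +4OHT positive cells and 1.60% of the 0-UMI cells. At full depth it was seen in 26.7% of the +4OHT positive cells and 4.19% of the 0-UMI cells. These shares depend on the counts per cell, so that they do not show how many cells expressed the gene. In -4OHT 40.5% of the 37 Nupr1 UMIs in positive cells came from 1 cell. Next came AW112010, annotated as a long noncoding RNA, with ratios of 123 and 7.89.

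Several leading genes code for proteins of the epithelial surface and its attachment. Aqp8, a water channel, was at 1006 against 163 CPM in -4OHT and at 632 against 210 CPM in +4OHT, ratios of 6.17 (5.46 to 6.94) and 3.01 (2.93 to 3.09). It was the most widely seen of the 15, in 60.01% of thinned +4OHT positive cells against 31.3% of 0-UMI cells. Itga6, the laminin receptor integrin alpha 6, was at 240 against 26.0 CPM and 148 against 44.7 CPM. Mucl3, a mucin-like gene, had ratios of 56.6 and 4.42, Psca of 29.2 and 3.44, and Tspan8, a tetraspanin gene, of 6.61 and 3.09. Ratios were the larger in -4OHT for all of these.

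The remaining leading genes were mostly genes of intracellular proteins. S100a6, a calcium-binding protein gene, had ratios of 8.88 and 4.42, and Tesc, which codes for the calcium-binding protein tescalcin, of 6.18 and 4.48. Ptk6, a non-receptor tyrosine kinase of epithelia, had ratios of 10.6 and 3.45. Oasl2, an interferon-induced gene, had ratios of 4.92 and 3.44. Cdc42ep5 (an effector of the GTPase Cdc42), Sdcbp2 (syntenin 2), Lrrc2 and the noncoding Gm20186 had ratios from 4.52 to 15.6 in -4OHT and from 2.94 to 4.38 in +4OHT. The -4OHT ratios of the 15 rest on 9 to 298 UMIs each, and more than 40% of them came from 1 cell for Nupr1, AW112010, Mucl3, S100a6, Gm20186, Psca and Oasl2. Between the 25th and 75th UMI percentile, where 11 positive -4OHT cells were left, the -4OHT ratio was 2.6 for Mucl3, 3.46 for Nupr1 and 1.73 for Oasl2, the last under the 2-fold limit. Some leading genes were higher in other cells than in positive cells. Fibroblast-like cells held 1938 and 302 CPM of Nupr1 and 3294 and 839 CPM of S100a6 (-4OHT and +4OHT). Itga6 was at 208.5 CPM in +4OHT epiblast-like cells. Except for these, each leading gene was lower in both classes than in positive cells.

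Clu, 1 of the 5 markers named for these cells, codes for the secreted chaperone clusterin. It was at 1222 against 53.9 CPM in -4OHT, a ratio of 22.7 (20.1 to 25.5), and was found in 19 of the 23 cells. In +4OHT it was at 241 against 149 CPM, a ratio of 1.62 (1.56 to 1.68), so that it was not among the 64 genes. In the 668 +4OHT cells that still held 3 or more UMIs of the rule after thinning, the ratio was 2.24, past the 2-fold limit. With positive cells taken at 2 or more UMIs the +4OHT ratio was 1.46. The -4OHT ratio was 11.3 without cells with 3 or more Amn and Cubn UMIs and 11.8 between the 25th and 75th UMI percentile. After thinning it was 45.6. The difference between the libraries was not tested.

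**Figure D2:**
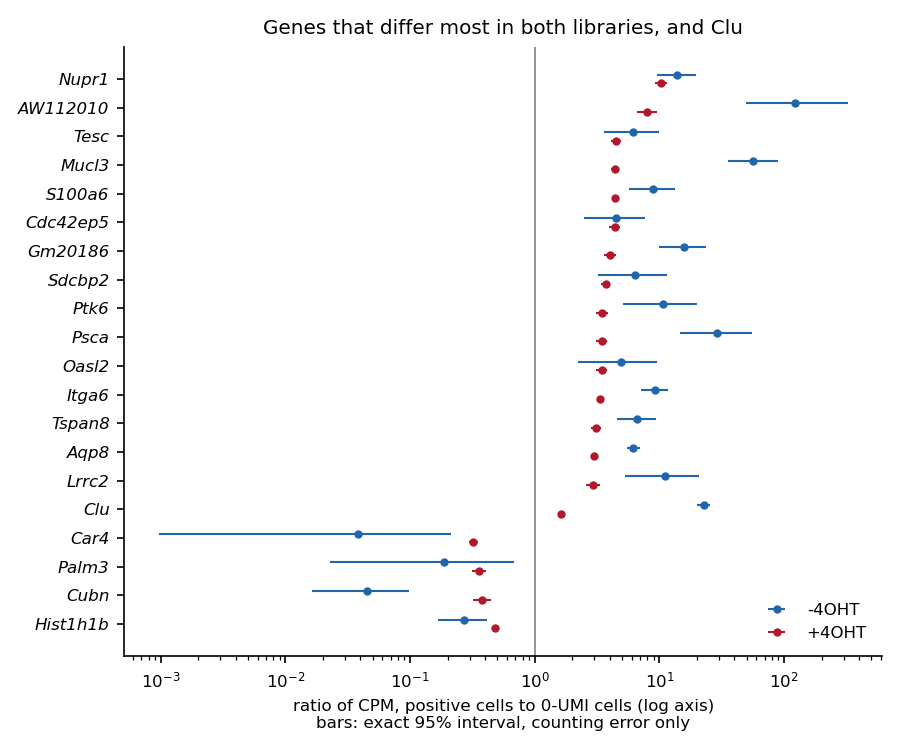
Ratio of CPM in positive cells to CPM in 0-UMI cells (x axis, log scale) for the 15 leading genes, for Clu and for 4 genes that were lower, in -4OHT and +4OHT. Points are ratios of summed counts and bars are exact 95% intervals that cover counting error only, and Clu is the gene whose +4OHT point, at 1.62, lies nearest to 1.

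Cubn, Car4, Palm3 and Hist1h1b were the named genes that were lower. Cubn, the cubilin gene, was at 20.3 against 452 CPM in -4OHT, from 6 UMIs, a ratio of 0.0448 (0.0164 to 0.0976), and at 8.15 against 21.6 CPM in +4OHT, a ratio of 0.378 (0.321 to 0.443). Car4, a membrane-bound carbonic anhydrase gene, had ratios of 0.0381 from 1 UMI and 0.322, at 32.6 against 102 CPM in +4OHT. Palm3, a paralemmin gene, had ratios of 0.187 and 0.358, and Hist1h1b, a replication-dependent linker histone gene, of 0.272 and 0.481. The 3 other genes called lower, named after their values were seen, were Emb, Lin28a and Irak1bp1. Cells with 3 or more Amn and Cubn UMIs made up 8.70% of positive cells and 57.0% of 0-UMI cells in -4OHT, and 1.25% and 3.62% in +4OHT. Without these cells 67 genes were higher, 54 of them among the 64, and 9 lower, 4 of them among the 7. For Pitx1 and Car4 the shares were 13.0% and 44.6% in -4OHT and 43.8% and 61.5% in +4OHT. Positive cells therefore overlapped with Pitx1 and Car4 cells in +4OHT and held fewer of them than the 0-UMI cells, although their median depth was also lower, at 11488 against 12720 UMIs.

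In +4OHT the named genes were also followed over cells grouped by the UMI sum of the 3 genes. Aqp8 stood at 210, 294, 446, 460.5, 796 and 959 CPM in cells with 0, 1 to 2, 3 to 5, 6 to 10, 11 to 29 and 30 or more UMIs. Nupr1 went from 9.10 CPM at 0 UMIs to 40.6 at 6 to 10 and 246 at 30 or more, the highest level being in the cells with the most gastrokine and trefoil transcripts. Car4 stood at 102, 67.2, 40.9, 33.8, 28.3 and 22.4 CPM over the same groups. The cells with 1 or 2 UMIs thus lay between the positive and the 0-UMI cells for Aqp8, Nupr1 and Car4. These genes were named for their difference between those cells, and the groups were cut on the counts of the rule, so that this is a description. Clu did not lie between, at 149 CPM at 0 UMIs, 147 at 1 to 2 and 385 at 30 or more. The mitosis genes described below stood at 2056 CPM at both 0 and 1 to 2 UMIs. Median depth was 12720, 12873, 12248, 11909.5, 10736.5 and 10549 UMIs in these groups, and its part in these values was not tested.

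**Figure D3:**
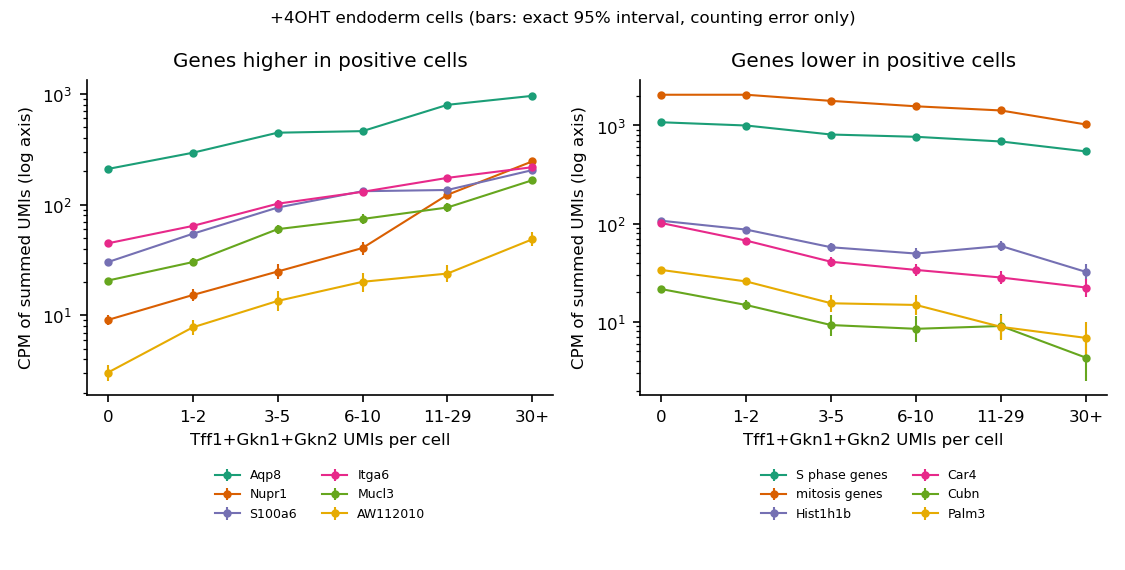
CPM of summed UMIs (y axes, log scale) in +4OHT endoderm cells grouped by their Tff1, Gkn1 and Gkn2 UMIs (x axes), for 6 genes that were higher in positive cells (left) and for 4 genes and 2 summed gene lists that were lower (right), with exact 95% intervals for counting error. Aqp8 stands at 210 CPM and Car4 at 102 CPM in cells with 0 UMIs, against 959 and 22.4 CPM in cells with 30 or more.

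Gene lists for pathways and cell types were described by the ratio of their summed CPM and by how many members passed the 2-fold rule in both libraries. Counts of members above or below 1 have no background beside them, since the share over all compared genes was not counted. The median log2 ratio over all compared genes was 0.11 in -4OHT and -0.01 in +4OHT. Cell cycle genes were lower in positive cells. The 13 S phase genes summed to 756 against 1205 CPM in -4OHT, a ratio of 0.628 (0.548 to 0.716), and to 720 against 1078 CPM in +4OHT, a ratio of 0.668 (0.656 to 0.680). Each of the 13 was below 1 in both libraries and 0 of them passed the 2-fold rule, with Slbp, which codes for the histone stem-loop binding protein, at 0.814 and 0.868 and the sliding clamp gene Pcna at 0.849 and 0.690. The 14 mitosis genes had ratios of 0.614 and 0.730, again with each of them below 1 and 0 past the rule. Top2a, a DNA topoisomerase gene, stood at 0.621 and 0.673. In +4OHT the mitosis genes summed to 2056 CPM in cells with 0 UMIs and 1024 CPM in cells with 30 or more, and the median cell stood at 130 CPM among positive and 425 CPM among 0-UMI cells.

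Visceral and parietal endoderm lists were read next. Of 18 visceral endoderm genes 8 were compared, and the list summed to a ratio of 0.399 (0.356 to 0.445) in -4OHT and 0.8 (0.787 to 0.813) in +4OHT. Cubn was the 1 member called lower, while Rbp4, a retinol carrier gene, was called higher at ratios of 7.53 and 2.03. All 15 parietal endoderm genes were compared, and they summed to ratios of 1.69 (1.63 to 1.75) and 1.31 (1.31 to 1.32) with 0 members past the rule. Of the 15, 12 were above 1 in -4OHT and 10 in +4OHT, where the share of all compared genes above 1 was not counted. In -4OHT 4 were 2-fold higher and 2 were 2-fold lower, where 12.5% and 7.23% of all compared genes were. Lamc1 and Lama1, laminin chain genes, stood at 1.95 and 1.69 in -4OHT and at 1.37 and 1.27 in +4OHT. The 19 endoderm transcription factor genes had ratios of 1.34 and 1.07, with Gata6 at 1.16 and 1.15 and Sox17 at 1.66 and 0.957. Pluripotency genes differed between the libraries, at 0.547 in -4OHT and 1.02 in +4OHT.

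Lists of the cell surface, of secretion and of signalling were mostly above 1. Of 12 plasminogen and coagulation genes 7 were compared and 2 were higher, at list ratios of 1.96 and 1.56. These were Procr, the endothelial protein C receptor gene, at ratios of 8.26 and 2.13, and Anxa2, an annexin that binds plasminogen and its activator at the cell surface, at 5.45 and 2.42. Of 11 retinoid genes Rbp4 and the retinal reductase gene Dhrs3 were higher, with list ratios of 1.87 and 1.01. Lysosome genes, all 14 compared and 0 past the rule, had list ratios of 1.26 and 1.46. Of them 9 were above 1 in -4OHT and 13 in +4OHT, again without a counted share of all genes. In -4OHT 4 of them were 2-fold higher and 2 were 2-fold lower, beside 12.5% and 7.23% of all compared genes. Ctsl, a cathepsin gene, stood at 1.24 and 1.64 and Cd63, a tetraspanin of late endosomes, at 1.44 and 1.41. The 10 genes of LIF and JAK/STAT signalling had list ratios of 1.89 and 1.51, with Klf4 at 2.23 and 1.69 and the feedback inhibitor gene Socs3 at 3.78 and 1.49. Immediate early genes had list ratios of 2.12 and 1.46, with the phosphatase gene Dusp1 called higher at 4.07 and 2.64. Ddit3, a transcription factor gene of the unfolded protein response, was called higher at 6.47 and 2.32, while its list of 17 genes stood at 1.12 in both libraries. Glycolysis and hypoxia genes had list ratios of 0.814 and 0.829, with Gapdh at 0.874 and 0.795 and Aldoa at 0.925 and 0.860.

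The other lists had 0 members called beyond Aqp8, Car4 and Psca, which were named above. Nodal and Activin response genes had list ratios of 2.52 and 1.33, water and ion transport genes of 1.92 and 1.40, and genes of secreted protective proteins, to which Clu belongs, of 3.15 and 1.25. Of the 8 Nodal and Activin response genes 4 were compared, at median log2 ratios of 0.37 and 0.53. The part of single members in that list was not counted. Aqp8 made up 1006 of the 1796 CPM of the transport list in -4OHT positive cells, against 163 of 937 in 0-UMI cells. In +4OHT it made up 632 of 1394 against 210 of 998 CPM. Clu made up 1222 of the 1570 CPM of the protective list in -4OHT, against 53.9 of 498. In +4OHT it made up 241 of 537 against 149 of 430.5 CPM. Both list ratios thus rested largely on 1 gene each. The p53 target genes stood at 1.63 and 1.02 and epithelial keratin and junction genes at 1.40 and 1.02. Of the 12 p53 target genes compared, 10 were above 1 in -4OHT and 2 in +4OHT. YAP targets stood at 1.34 and 1.02, but 1 of the 5 members compared was above 1 in each library, and after thinning the -4OHT ratio was 0.837. WNT response genes stood at 1.48 and 0.930, BMP response genes at 1.03 and 1.38, and FGF and ERK genes at 0.525 and 0.953. Heat shock genes stood at 0.794 and 0.954 and cholesterol synthesis genes at 1.01 and 0.972. Of the 14 cholesterol synthesis genes, 2 were above 1 in -4OHT and 3 in +4OHT, so that these sums near 1 do not describe most members. Anterior visceral endoderm genes stood at 0.184 and 0.627, genes of Pitx1 and Car4 endoderm at 0.690 and 0.722, early primitive endoderm genes at 0.799 and 1.08 and late ones at 1.25 and 0.896. Of the 4 late genes compared, 3 were above 1 in each library. Wider lists of trophectoderm and feeder fibroblast genes, each with 1 member compared, stood at 0.639 and 0.969 and at 1.61 and 0.853. The gastric genes, also with 1 member compared, stood at 3.13 and 2.61. That member, Psca, made up 47.3 of their 67.5 CPM in -4OHT positive cells, against 1.62 of 21.6 in 0-UMI cells. In +4OHT it made up 47.9 of 57.4 against 13.9 of 22.0 CPM, so that the gastric ratios rested largely on Psca. The remaining genes of the gastrokine and trefoil families summed to ratios of 91.9 and 3.55, where 86.2% of the -4OHT UMIs came from 1 cell, and those of cells resembling the cleaving embryo to at most 3.38 CPM in positive cells.

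**Figure D4:**
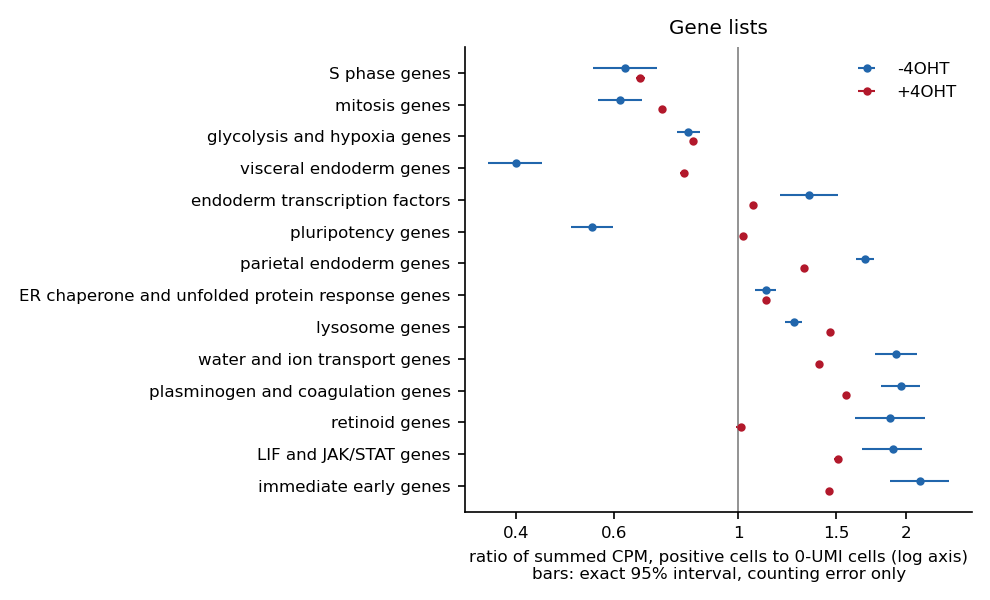
Ratio of summed CPM in positive cells to that in 0-UMI cells (x axis, log scale) for 14 gene lists in -4OHT and +4OHT, with exact 95% intervals for counting error. The S phase and mitosis lists lie below 1 in both libraries, between 0.614 and 0.730, and the parietal endoderm, lysosome and LIF lists lie above 1 in both.

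The bulk libraries of the OCT4-mCherry line measured the same genes in other samples. Total counts ran from 8019631 to 11642571 reads per library. Gkn1 stood at 13.0, 2.59 and 5.21 CPM in Pdgfra+ replicates 1 to 3, at 12.9, 1.53 and 1.83 CPM in DP, and had 0, 2 and 0 reads in Oct4+. Gkn2 stood at 16.1, 2.49 and 6.36 CPM in Pdgfra+, at 22.0, 2.36 and 2.22 CPM in DP, and had 0, 3 and 1 reads in Oct4+. Tff1 stood at 5.97, 0.597 and 2.92 CPM in Pdgfra+, at 5.97, 1.06 and 1.43 CPM in DP, and had 4, 3 and 0 reads in Oct4+. In both endoderm populations replicate 1 was the highest for each of the 3 genes, and the DP and Pdgfra+ values overlapped. In bulk samples, fewer cells of a type and less RNA per cell cannot be told apart.

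The 3 genes did not differ between DP and Pdgfra+ beyond the spread between replicates. The log2 fold change of DP over Pdgfra+ was -0.35 ± 0.86 (SE) for Gkn1, 0.10 ± 0.92 for Gkn2 and -0.15 ± 0.86 for Tff1, with adjusted p of 0.832, 0.956 and 0.929 in edgeR's quasi-likelihood test with Benjamini-Hochberg adjustment. With the replicate number as a block these became -0.63 ± 0.35, -0.25 ± 0.40 and -0.15 ± 0.41, at edgeR adjusted p of 0.233, 0.677 and 0.813. Clu, at 1151 ± 728 CPM (SD, n = 3) in Pdgfra+ and 698 ± 638 in DP, and Aqp8, at 166 ± 93.3 and 275 ± 84.1 CPM, also overlapped, with adjusted p of 0.634 and 0.569 in the same edgeR test without a block. With the block Clu had a log2 fold change of -0.82 ± 0.30, at an edgeR adjusted p of 0.0999. Aqp8 was, however, higher in DP in 3 of 3 same-numbered pairs, and with the replicate number as a block its log2 fold change was 0.84 ± 0.14, at an edgeR adjusted p of 0.0202, under the fold limit. Of the 15 leading genes 12 passed the filter on low counts, and 0 of the 12 were called higher or lower at an adjusted p under 0.05 and an absolute log2 fold change over 1.5 by edgeR. At an unadjusted p under 0.05 the count was also 0, and DESeq2 called 0. Over all 14185 genes 454 (3.20%) were higher and 98 (0.691%) lower in DP. Same-numbered libraries deviated together, and with the replicate number as a block 1 leading gene, Mucl3, was lower in DP, at a log2 fold change of -1.70 ± 0.46 and an adjusted p of 0.0491 in edgeR, where 4.11% of all genes were higher and 1.58% lower. At adjusted p alone 4 of the 12 passed in that edgeR fit, Aqp8 higher in DP and Mucl3, S100a6 (-1.14 ± 0.30, adjusted p 0.0443) and Itga6 (-0.54 ± 0.15, adjusted p 0.0492) lower, each in 3 of 3 pairs. The shares of all genes given for that fit also require the fold limit. The share at adjusted p alone was not counted, so that these 4 have no background beside them. The CPM values of Mucl3 were 18.2, 2.19 and 17.2 in Pdgfra+ and 9.21, 1.06 and 1.96 in DP.

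Tff3, named after its values were seen, was the trefoil gene that separated these groups. It stood at 2.92, 2.09 and 3.23 CPM in Pdgfra+ and at 0.622, 0.707 and 0.783 CPM in DP, with no overlap, at a log2 fold change of -1.94 ± 0.48 and an edgeR adjusted p of 0.0422. These values rest on 21 to 31 reads per library in Pdgfra+ and 5 or 6 in DP. The call was lost when any 1 of the 6 libraries was left out, at edgeR adjusted p from 0.0816 to 0.154.

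**Figure D5:**
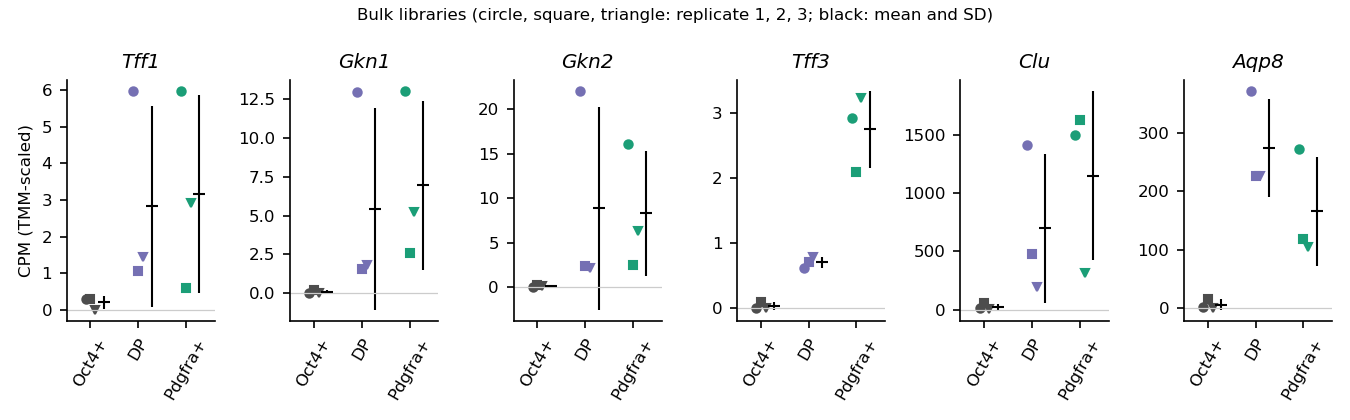
CPM scaled by TMM (y axes, a separate linear scale for each gene) of Tff1, Gkn1, Gkn2, Tff3, Clu and Aqp8 in the 9 bulk libraries, grouped as Oct4+, DP and Pdgfra+. Each symbol is 1 library, with the mean and SD of 3 in black, and replicate 1 is the highest DP and Pdgfra+ library for Tff1, Gkn1 and Gkn2.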

How the data were processed

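Single-cell libraries were deposited as raw UMI counts per gene and barcode, made by the authors with Cell Ranger 6.1.2 (per the file headers) on an mm10 reference. The bulk table holds raw read counts per gene symbol, as deposited by the authors. For this table, no source used here names the aligner, the counter or the use of strand. No further cell filter and no doublet caller was applied beyond the rule given above. Leaving out cells above the 95th UMI percentile or with 3 or more pluripotency UMIs stood in for doublet removal.

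Counts were summed over cells of a set and given as CPM with exact Poisson 95% intervals. Ratios have exact conditional binomial intervals. Epiblast-like cells held at least 3 UMIs of Sox2, Nanog, Esrrb, Zfp42 and Tdgf1 together and under 1000 per 1e6 UMIs of the endoderm genes, and fibroblast-like cells at least 1000 per 1e6 UMIs of the collagens. Leading genes are the 15 with the largest smaller ratio among those 2-fold higher in both libraries, with 20 CPM or more in the higher set. Up to 15 lower genes were named in the same way, and from each list up to 4 members past the rule or, where none was, up to 2 of the most abundant. Genes of the rule were left out of list sums. The members, the rule and the 33 gene lists were chosen with earlier results of these data known.

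Bulk counts of all 9 libraries were fitted in edgeR 4.0.16 (R 4.3.3, filterByExpr, TMM, glmQLFit, glmQLFTest), with DESeq2 1.42.0 as an alternative. The table ended in 35 blank rows, which hold no counts and were left out. Replicates of a group differed beyond sampling noise in a chi-square test of their counts, at 16.9 to 37.1 per degree of freedom. The study calls them biological replicates and the labels do not say how they were separated, so that p-values measure the spread between these samples. Deviations from the group means of same-numbered DP and Pdgfra+ libraries correlated at 0.271, 0.477 and 0.321 across genes, so that the numbers, by this reading of the counts, pair the libraries. Both procedures were run on simulated data in which chosen genes were changed. The single-cell simulation had no spread between cells beyond counting error. The bulk simulation had the same spread for all genes and no pairing of libraries. These runs therefore do not test the calls under the spread and pairing of the real data. Python 3.11.15, numpy 2.4.6, scipy 1.17.1 and pandas 2.3.3 were used. Gene positions are from GENCODE (release M21) for GRCm38, and promoters from RefSeq.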

Additional observations from a re-analysis of the deposited data

Results flagged for a closer look

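Of the genes that were named or listed, Spp1 and Zfp42 lay at least 1.5-fold on opposite sides of 1 in the 2 libraries, with both counting intervals excluding 1. Spp1, which codes for the secreted protein osteopontin, was at 176 CPM in positive cells and 311 CPM in 0-UMI cells without 4OHT, a ratio of 0.564 (0.421 to 0.741), and had a ratio of 2.25 with 4OHT. Zfp42, a pluripotency gene, was at 50.6 against 101 CPM without 4OHT, a ratio of 0.499 (0.279 to 0.825), and had a ratio of 1.51 with 4OHT. The -4OHT values rest on 52 and 15 UMIs, of which 34.6% and 53.3% came from 1 cell. The difference between the libraries was not tested, since each condition has 1 library, and the limit of 1.5-fold was set after seeing the data.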

How the results depend on the processing

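The share of positive cells was the higher in +4OHT under each alternative. It became 2.65% and 30.1% (-4OHT and +4OHT) with 2 or more UMIs, 18.3% in +4OHT with 5 or more UMIs, 19.1% in +4OHT for cells between the 25th and 75th percentile of UMIs, and 0.489% and 10.6% after thinning. The 64 genes higher and 7 lower became 121 and 181 after thinning (7 positive -4OHT cells), 295 and 1600 with no filter on low genes, and 18 and 1 at a mean CPM of 50 or more. In alternatives chosen after seeing the data they became 111 and 17 in +4OHT alone and 1032 and 596 in -4OHT alone. The lower genes became 14 with 5 or more UMIs, 26 between the percentiles, 18 without cells above the 95th percentile of UMIs and 21 as a mean over cells. Of 280 alternative ratios of the 20 named genes in each library, 60 in -4OHT and 7 in +4OHT moved by over 1.5 times. Those that crossed the 2-fold limit were Psca at 0 (-4OHT) and Clu at 2.24 (+4OHT) after thinning, Oasl2 in -4OHT at 1.73 between the percentiles and 1.58 without Amn and Cubn cells, Cubn in -4OHT at 0.528 without those cells, and Hist1h1b at 0.55 and 0.521 with 2 or more UMIs and, in +4OHT, at 0.508 against cells with 0 to 2 UMIs. The -4OHT ratio of AW112010 was 40.0 at a mitochondrial limit of 8%. S phase and mitosis lists stayed below 1 in both libraries as a mean over cells, after thinning, and without high-UMI or pluripotency cells. In bulk, the replicate block gave 1 leading gene lower in DP and a Gkn2 log2 fold change of -0.25. It changed no other call by both limits among the leading genes or the 5 markers. Leaving out 1 library of DP or Pdgfra+ at a time moved the log2 fold change between -2.03 and 0.48 for Gkn1, -1.84 and 1.01 for Gkn2 and -1.32 and 0.69 for Tff1, with 0 to 0 leading genes called higher or lower. For Tff3 it ran from -2.11 to -1.81, and none of these fits called it, while DESeq2, its size factors in edgeR, no filter on low counts, the 6 libraries alone and the replicate block each did. The -4OHT values rest on 23 cells.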
